A study of Oryza sativa with 12 samples.

Results

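The 121 rice loci described here were strongly lower in nup1 mutant anthers at stage 10 and are listed by the authors at that stage only. They were chosen by their measured values: a locus had to be in the authors' stage 10 table, absent from their stage 11 table, and have a difference of -2 or less. The difference is the mean log2(FPKM + 1) of the 3 nup1 libraries minus that of the 3 wild-type libraries, where FPKM counts fragments per kilobase of transcript, scaled to library size. The stage 10 table holds 3453 loci, of which 2003 are not in the stage 11 table. Levels of the 121 loci at stage 11 were not analysed here, so their selection does not mean that they were unchanged then.

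Both groups are poly(A) RNA of rice (Oryza sativa) anthers at stage 10, from wild-type plants and from the nup1 mutant, with 3 biological replicates each. The series also has 3 libraries of each genotype at stage 11, which makes 12 in all. The labels give no cultivar, no altered locus or allele for nup1, and no number of plants pooled in a library. Whether the replicates came from separate plantings is not stated either.

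An anther holds developing pollen inside several wall layers, and the innermost layer, the tapetum, feeds the microspores. Around these stages the rice tapetum secretes wall precursors, carried in part on small sporopollenin-coated particles called Ubisch bodies, and then degenerates. The series title places loss of Ubisch bodies and male sterility at the centre of the study. An RNA level from whole anthers sums over all these layers. Fewer cells of a type and less RNA per cell cannot be told apart in such bulk samples.

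No name or function is given to any of the 121 loci, because none of their MSU identifiers is in the reference table used here. An identifier such as LOC_Os10g05720 carries its chromosome, here 10, and a number that rises along it. The loci are therefore described by level, by library and by place.

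In wild-type anthers the 121 loci spanned mean levels from 3.59 to 4573 FPKM, with a median of 41.2 FPKM. In nup1 the means ran from 0.0769 to 559 FPKM, with a median of 4.84 FPKM. Thus 38 of the 121 had a wild-type mean of 100 FPKM or more, 58 lay between 10 and 100 FPKM, and 25 were under 10 FPKM. In nup1, 25 had a mean under 1 FPKM. The nup1 mean was 1.37% to 24.7% of the wild-type mean, with a median of 12.8%, and was under 10% of it in 37 loci. Differences ran from -6.42 to -2.0 with a median of -2.49, beside a median of 0.84 over all 3453 listed loci. Another scaling of the libraries shifted that overall median by -0.20 (median centring or quantile normalization).

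Together the 121 loci made up a sizeable part of the listed FPKM in wild type. Their summed level was 24263, 28946 and 23538 FPKM in wild-type replicates 1, 2 and 3, which was 17.1%, 15.8% and 15.6% of the sum over all listed loci. The sum was 3394, 3768 and 2439 FPKM in the nup1 replicates, or 2.71%, 3.11% and 1.78%. The nup1 sums were all far under the wild-type sums, as the choice of loci requires.

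**Figure D1:**
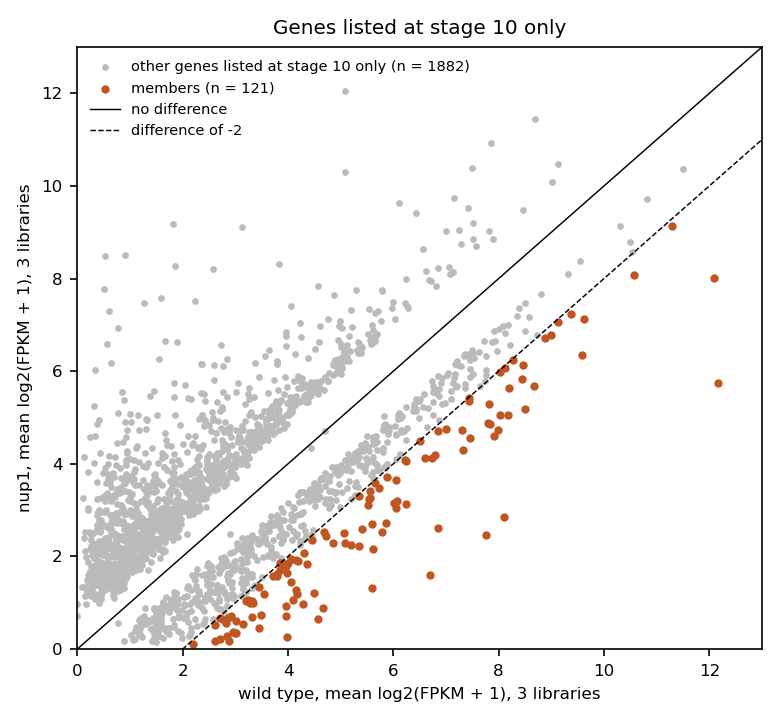
Mean level in nup1 (vertical) against wild type (horizontal) at stage 10, both as mean log2(FPKM + 1) over 3 libraries, for the 2003 loci listed at stage 10 only. The 121 loci chosen lie on or under the dashed line of a difference of -2, the solid line marks no difference, and the other loci lie above the dashed line.

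The spread between replicates was small beside these differences for nearly all loci. Standard errors from a limma fit over the listed loci ran from 0.181 to 0.785 on the log2 scale, with a median of 0.320. All 121 had 3 wild-type libraries above 3 nup1 libraries, beside 42.0% of all listed loci (1450 of 3453). In the limma fit 120 of the 121 passed an adjusted p under 0.01 with a fold over 2, beside 33.1% of fitted loci that passed as lower (1111 of 3358). The selection used this same contrast, so both counts describe replicate spread and nothing more is read from them. With the libraries centred on their medians, 1321 listed loci passed as lower and 968 as higher, in place of 1111 and 1338.

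The locus that missed the threshold was LOC_Os04g33710. Its wild-type libraries held 4.06, 23.4 and 2.12 FPKM and its nup1 libraries 0.270, 1.47 and 0.298 FPKM. The groups did not overlap, but replicate 2 was far above the other replicates in both genotypes, and the difference was -2.19 ± 0.67 (SE, n = 3 per group).

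The most negative differences, of -4 or less, were at 7 loci. Their nup1 means were 1.58% to 5.97% of wild type, with a median of 3.15%. First among them was LOC_Os10g05720, which had 4276, 4870 and 4572 FPKM in wild type and 39.6, 154 and 23.3 FPKM in nup1. It had the highest wild-type mean of the 121 and a difference of -6.42 ± 0.59 (SE, n = 3 per group). The wild-type libraries differed little at this locus, while nup1 replicate 2 stood 4.90 times above the mean of the other nup1 libraries.

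A close neighbour, LOC_Os10g05750, had 4833, 4187 and 4039 FPKM in wild type. Its nup1 libraries held 273, 295 and 212 FPKM, for a difference of -4.07 ± 0.28 (SE, n = 3 per group). The nup1 libraries were close together here, unlike those of LOC_Os10g05720, and again no library crossed between the groups. These loci together gave 31.3% to 37.5% of the summed FPKM of the 121 in the wild-type libraries and 9.20% to 11.9% in the nup1 libraries.

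On chromosome 1, LOC_Os01g46270 had 223, 231 and 195 FPKM in wild type and 3.75, 13.5 and 1.48 FPKM in nup1, a difference of -5.29 ± 0.55 (SE). LOC_Os01g08800 had 273, 280 and 263 FPKM against 6.12, 17.7 and 1.89 FPKM, a difference of -5.23 ± 0.56 (SE). At both loci the wild-type libraries were nearly level and the nup1 libraries had one order, with replicate 2 highest and replicate 3 lowest.

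LOC_Os06g51370 had 82.0, 122 and 108 FPKM in wild type and 1.40, 5.08 and 0.892 FPKM in nup1, a difference of -5.10 ± 0.42 (SE). LOC_Os05g08850 had 49.7, 49.9 and 42.5 FPKM against 0.711, 3.78 and 0.927 FPKM, a difference of -4.27 ± 0.38 (SE). LOC_Os03g53350 had 105, 150 and 93.4 FPKM against 4.87, 8.25 and 3.2 FPKM, a difference of -4.23 ± 0.34 (SE). In all of these nup1 replicate 2 was again the highest mutant library. Over the 7 loci with a difference of -4 or less it was the highest in 7, at a median of 4.43 times the mean of the other nup1 libraries. The median was 1.60 times in the 21 loci from there up to -3, and 1.32 times in the 31 above -3 up to -2.5. Among the 62 loci with a difference between -2.5 and -2 it was the highest in 37, at a median of 1.26 times. Over all 121 loci, the excess of nup1 replicate 2 and the difference had a Spearman rho of only -0.18, given as a description.

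Next by difference, and lower in level, was LOC_Os08g07720, with 14.0, 43.4 and 18.9 FPKM in wild type and 0.429, 0.975 and 0.397 FPKM in nup1. LOC_Os10g11889 had 15.7, 28.0 and 33.2 FPKM against 1.36, 0.510 and 0.779 FPKM. LOC_Os04g46140 had 15.8, 18.9 and 10.8 FPKM against 0, 0.469 and 0.155 FPKM. All nup1 values of these loci lay under 1.5 FPKM, where adding 1 FPKM before taking the log understates the fold. The differences were -3.90 ± 0.39, -3.78 ± 0.33 and -3.73 ± 0.27 (SE, n = 3 per group). Their nup1 means were 2.36%, 3.44% and 1.37% of wild type, within or under the 1.58% to 5.97% of the 7 loci with a difference of -4 or less. The nup1 library listed at 0 for LOC_Os04g46140 may be a failed estimate and not an absence of RNA.

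**Figure D2:**
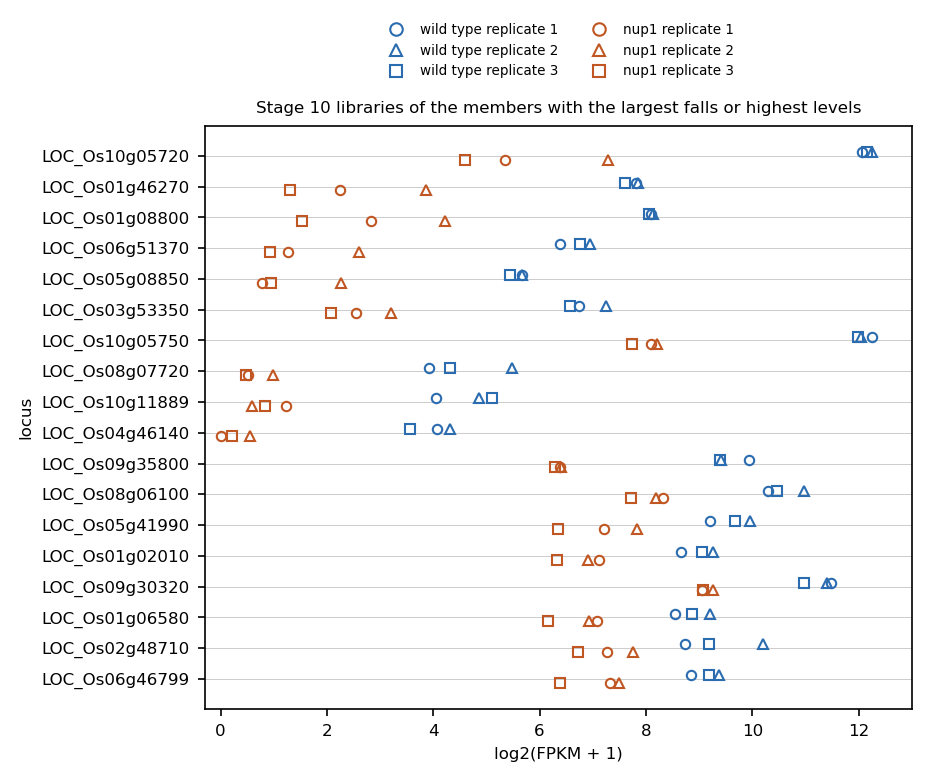
Level of 18 loci in each of the 6 stage 10 libraries, on a log2(FPKM + 1) axis, with wild-type and nup1 libraries as separate points. The loci are the 10 with the most negative differences and the 10 with the highest wild-type means, of which 2 are in both sets. In none do the genotypes overlap.

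Of the 10 loci with the highest wild-type means, the 8 besides the chromosome 10 neighbours had nup1 means at 10.4% to 24.7% of wild type. LOC_Os09g30320 had 2832, 2700 and 2016 FPKM in wild type and 527, 615 and 535 FPKM in nup1, a difference of -2.16 ± 0.28 (SE). LOC_Os08g06100 had 1258, 2007 and 1402 FPKM against 317, 291 and 210 FPKM, a difference of -2.5 ± 0.31 (SE). Either transcript thus stayed at 210 FPKM or more in every mutant library.

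LOC_Os09g35800 had the lowest of these shares, with 980, 683 and 670 FPKM in wild type and 82.0, 83.0 and 77.6 FPKM in nup1, a difference of -3.23 ± 0.26 (SE). Its nup1 libraries were nearly level. LOC_Os05g41990 varied more, with 589, 994 and 816 FPKM in wild type and 146, 226 and 80.3 FPKM in nup1, a difference of -2.49 ± 0.40 (SE).

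LOC_Os02g48710 had 427, 1170 and 584 FPKM in wild type and 152, 214 and 105 FPKM in nup1. Wild-type replicate 2 was 2.32 times the mean of the other wild-type libraries, and the difference of -2.13 ± 0.42 (SE) became -1.72 without it, which is outside the cutoff. The remaining loci of the set were close to one another. LOC_Os06g46799 had 456, 664 and 583 FPKM against 159, 179 and 82.0 FPKM, and LOC_Os01g02010 had 404, 610 and 529 FPKM against 137, 119 and 79.4 FPKM. LOC_Os01g06580 had 374, 588 and 464 FPKM against 133, 120 and 70.5 FPKM. In these last 3 loci wild-type replicate 2 was the highest and nup1 replicate 3 the lowest library of its group, and the differences were -2.07 ± 0.35, -2.21 ± 0.30 and -2.15 ± 0.32 (SE, n = 3 per group).

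That library order was common among the 121. Wild-type replicate 2 was the highest wild-type library in 97 of them (80.2%), replicate 1 in 14 and replicate 3 in 10. Among all listed loci replicate 2 was the highest in 44.5%, among the 584 loci listed lower at stage 10 only with a smaller difference in 70.0%, and among the 231 loci with a difference of -2 or less that are listed at both stages in 94.4%. Nup1 replicate 3 was the lowest mutant library in 88 of the 121 (72.7%), beside 33.9% of all listed loci, 49.1% of the 584 and 56.3% of the 231. Nup1 replicate 2 was the highest mutant library in 72 (59.5%), beside 37.4%, 36.1% and 61.5%. These shares are descriptions with no test, since the loci share their libraries.

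Relative to their group means, the median deviations over the 121 loci were -0.24, 0.33 and -0.15 in wild-type replicates 1, 2 and 3 and 0.09, 0.22 and -0.32 in the nup1 replicates, in log2(FPKM + 1). Over all listed loci they were -0.09, 0.03 and 0.01, and 0.01, 0.01 and -0.01. The chosen loci therefore sat high in replicate 2 of both genotypes and low in nup1 replicate 3, by more than the listed loci as a whole. Those overall medians mix opposite deviations. Over the 288 loci with a difference of 2 or more at stage 10 only, the median was -0.40 in wild-type replicate 2. It was -0.07 in nup1 replicate 2 and 0.18 in nup1 replicate 3. Over the 231 loci with a difference of -2 or less listed at both stages, the median was 0.54 in wild-type replicate 2. It was 0.20 in nup1 replicate 2 and -0.18 in nup1 replicate 3. A high replicate 2 is thus not particular to the 121. In 14 loci (11.6%) wild-type replicate 2 was over 2 times both other wild-type libraries, beside 7.1% of all listed loci and 31.6% of the 231. In 20 (16.5%) nup1 replicate 2 was over 2 times both other nup1 libraries, beside 3.8% and 17.3%. Across the 121 loci the excess of replicate 2 in wild type and in nup1 had a Spearman rho of 0.26, given as a description over loci that share the same 6 libraries.

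**Figure D3:**
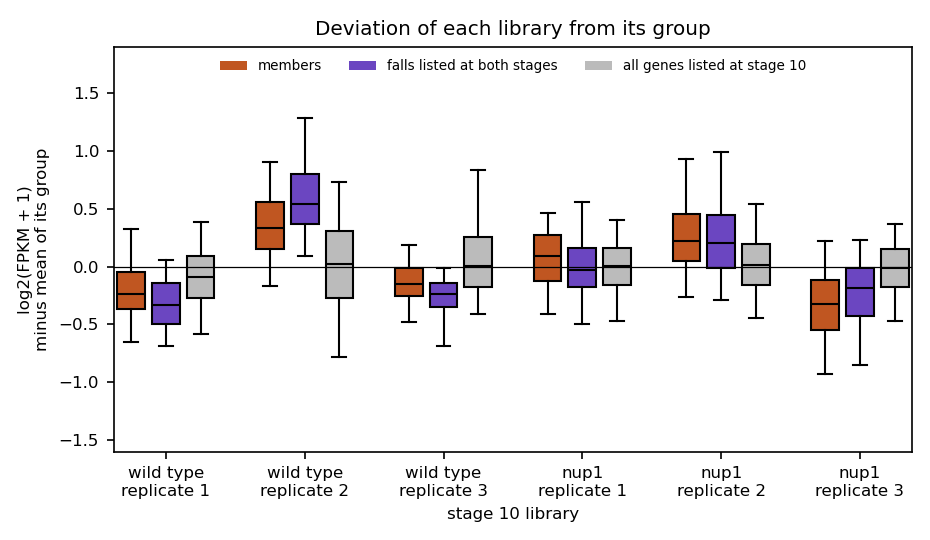
Deviation of each stage 10 library from its group mean, in log2(FPKM + 1), for the 121 loci, for the 231 loci with a difference of -2 or less listed at both stages, and for all 3453 listed loci; boxes span the quartiles and whiskers the 5th to 95th percentiles. Medians of the 121 loci are highest in wild-type replicate 2 (0.33) and lowest in nup1 replicate 3 (-0.32).

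The choice of loci rests on these libraries to some degree. Without wild-type replicate 2, 95 loci meet the cutoff, 90 of them among the 121, and without nup1 replicate 3, 98 meet it, 93 of them among the 121. With each of the 6 libraries left out in turn, 77 of the 121 stay at or under -2 every time and 44 do not. Of the 59 loci with a difference of -2.5 or less, 57 stay.

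Another order was found at a few loci with wild-type replicate 1 on top. LOC_Os03g14130 had 442, 308 and 347 FPKM in wild type and 42.4, 23.8 and 44.1 FPKM in nup1, a difference of -3.31 ± 0.31 (SE). LOC_Os07g35940 had 83.1, 42.8 and 45.4 FPKM against 4.67, 5.76 and 4.09 FPKM, a difference of -3.26 ± 0.30 (SE). LOC_Os10g35490 had 311, 189 and 202 FPKM against 25.9, 25.6 and 32.8 FPKM, a difference of -2.99 ± 0.28 (SE). At these loci, singled out after their values were seen, the high wild-type library was another one than at most of the 121. The nup1 libraries were close together at LOC_Os07g35940 and LOC_Os10g35490, whereas at LOC_Os03g14130 replicate 2 was well under the others.

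A few loci had a much wider spread between replicates. LOC_Os05g07060 had 183, 449 and 197 FPKM in wild type and 23.9, 69.0 and 9.78 FPKM in nup1, a difference of -3.25 ± 0.63 (SE). LOC_Os04g39340 had 11.2, 47.1 and 13.7 FPKM against 0.415, 4.10 and 5.23 FPKM, a difference of -2.53 ± 0.65 (SE), which became -1.92 without wild-type replicate 2 and -1.87 without nup1 replicate 1. LOC_Os11g35310 had 33.8, 41.2 and 45.3 FPKM against 8.63, 0 and 9.84 FPKM, and its difference of -3.12 ± 0.78 (SE) became -2.0 without nup1 replicate 2, the library listed at 0; before rounding that value is just outside the cutoff, so the locus is among the 121 only with that library. Besides LOC_Os04g46140, the other locus with a library listed at 0 was LOC_Os01g57020, with 3.6, 14.9 and 2.88 FPKM in wild type and 0, 0.320 and 0.213 FPKM in nup1.

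The cutoff of -2 cut through a continuous range. Just inside it were LOC_Os09g34320 with -2.02, LOC_Os07g37100 with -2.0 and LOC_Os04g26870 with -2.0. Just outside were LOC_Os05g48200, whose difference also rounds to -2.0, LOC_Os12g07640 with -1.98 and LOC_Os08g08760 with -1.98. LOC_Os04g26870, inside, had 14.0, 15.4 and 11.3 FPKM in wild type and 4.34, 2.59 and 1.47 FPKM in nup1. LOC_Os05g48200, outside, had 8.62, 8.80 and 9.38 FPKM against 1.67, 1.59 and 1.21 FPKM, so its nup1 mean was the smaller share of wild type (16.7% against 20.6%). The added 1 FPKM weighs more on the lower of these levels.

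The 231 loci with a difference of -2 or less that are listed at both stages are the nearest comparison. Their median wild-type level was 38.4 FPKM, close to the 41.2 FPKM of the 121, and their median nup1 level was 3.05 FPKM beside 4.84 FPKM. Their nup1 means had a median of 8.91% of wild type, beside 12.8%, and their median difference was -2.80, beside -2.49. The 584 loci listed lower at stage 10 only with a smaller difference had a median wild-type level of 11.8 FPKM and a nup1 mean at a median of 37.0% of wild type. These are descriptions, since level and difference are part of the selection.

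The replicate spread differed in kind between the first 2 sets. The median SD of the 3 wild-type libraries on the log2 scale was 0.353 in the 121 and 0.484 in the 231, and that of the nup1 libraries was 0.421 and 0.313. Wild-type replicate 2 was over 2 times both other wild-type libraries in 11.6% of the 121 and in 31.6% of the 231. The difference between the sets was not tested.

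By place, the 121 loci lay on all 12 chromosomes. Chromosome 10 held 13 of them among 188 listed loci (6.91%), the highest share. Chromosomes 12 and 7 had the lowest, with 2 of 175 and 3 of 261 (1.1% each). Over all chromosomes the share was 3.50%.

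The loci were scattered along the chromosomes. Within 5 locus steps, LOC_Os10g05720 and LOC_Os10g05750 were the only 2 of the 121 with another of the 121 beside them (1.65%). The same count was 14.3% in the 231 loci listed at both stages and 15.9% in the 584 with a smaller difference, sets that are larger and so have more chances of a neighbour. Counting any listed locus, 64 of the 121 had a neighbour within 5 steps, in 100 pairs, beside 1851 of all 3453 listed loci (53.6%). Of the neighbours of the 121, 48 were listed lower and 52 higher in the authors' deposited table. That is 48.0% lower, near the 44.1% over the neighbours of all listed loci.

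Some neighbours were also lower but are outside the 121, being listed at stage 11 too. LOC_Os04g33710 adjoins LOC_Os04g33720, which had 13.6, 118 and 6.43 FPKM in wild type and 1.27, 1.13 and 1.08 FPKM in nup1, a difference of -3.44 ± 0.84 (SE). Both had a single high wild-type library, replicate 2. LOC_Os01g06150 had 9.30, 7.63 and 10.4 FPKM in wild type and 0.322, 2.44 and 0.745 FPKM in nup1, and the listed loci just before it, LOC_Os01g06130 and LOC_Os01g06140, had differences of -2.12 and -2.5. LOC_Os01g08800 lay between LOC_Os01g08780 and LOC_Os01g08810, with differences of -2.28 and -1.92.

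Other neighbours were higher in nup1. LOC_Os07g37090, next to LOC_Os07g37100, had 28.3, 0 and 21.6 FPKM in wild type and 567, 433 and 688 FPKM in nup1. Its difference of 5.99 ± 1.08 (SE) is enlarged by the wild-type library listed at 0. LOC_Os11g02165, near LOC_Os11g02130, had 0.332, 1.67 and 0 FPKM against 48.5, 281 and 282 FPKM, a difference of 6.69 ± 0.66 (SE). Of the 27 pairs of adjoining locus numbers, the neighbour was listed lower in 14 and higher in 13 in the authors' deposited table. Of all loci listed at stage 10, 43.8% are listed lower. By its measured difference the neighbour was lower in 11 of the 27 pairs and higher in 16. Neighbouring loci that overlap or resemble each other could share reads, and the table does not say how such reads were counted.

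A steady ratio joined a pair of loci on different chromosomes. LOC_Os12g02080 had 273, 526 and 305 FPKM in wild type and 84.9, 77.3 and 50.1 FPKM in nup1, a difference of -2.34 ± 0.34 (SE). LOC_Os11g02130 had 98.7, 187 and 112 FPKM against 32.1, 28.1 and 19.2 FPKM, a difference of -2.25 ± 0.32 (SE). The ratio of the first to the second was 2.77, 2.82 and 2.73 in wild type and 2.64, 2.75 and 2.61 in nup1, so the highest ratio was 1.08 times the lowest while the levels themselves moved several fold.

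Among the 6903 pairs of chosen loci with no library at 0, this pair had the steadiest ratio, and the median pair varied 4.41-fold. A steady ratio was not particular to it, since 8 pairs varied less than 1.2-fold. LOC_Os12g02080 varied 1.14-fold against LOC_Os03g25150, and LOC_Os01g02010 varied 1.14-fold against LOC_Os11g09150. The steadiest pair was picked out after the values were seen. The starts of chromosomes 11 and 12 are known in rice as a recently duplicated segment, and near-identical copies could share reads. Whether LOC_Os12g02080 and LOC_Os11g02130 are such copies was not tested.

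**Figure D4:**
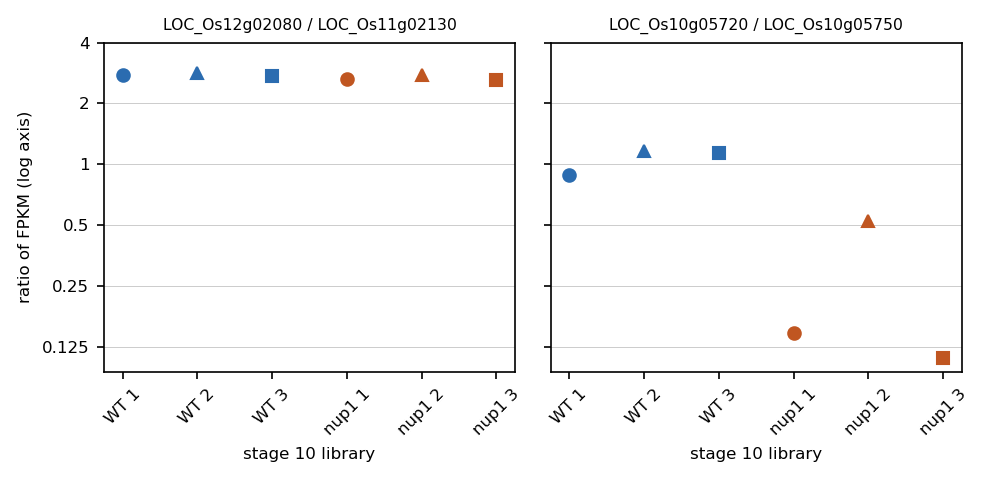
Ratio of FPKM between 2 loci in each of the 6 stage 10 libraries, on a log axis, for LOC_Os12g02080 over LOC_Os11g02130 and for LOC_Os10g05720 over LOC_Os10g05750. The first ratio stays between 2.61 and 2.82, while the second is near 1 in wild type and lower in every nup1 library.

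Known anther genes were looked for among the 121 through 12 lists of 64 loci, whose locus numbers come from general knowledge of rice and are not paired with symbols by the reference table. Of the 64, 28 were listed at stage 10, 12 of them lower and 16 higher, beside 43.8% of all listed loci that are listed lower, and 5 had a difference of -2 or less. All of these 5 are listed at both stages, so none is among the 121. Of all listed loci 3.50% are among the 121, and 6.69% have such a difference and are listed at both stages. Few of 28 loci would be among the 121 at that share, so nothing is read from their absence. In the list of pollen wall and cuticle loci, 15 of 16 were listed, 5 of them lower, with 3 at -2 or less, and 10 higher, with differences of 1.39 to 7.27. All 3 loci of tapetal cell death were listed, and all were higher, with differences of 2.22 to 6.21. In the list of late pollen and sugar supply, 4 of 8 were listed, all 4 lower and 2 at -2 or less.

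The listed cell type markers were all lower in nup1 in the same libraries, while some other loci taken as genes of the same tissues were higher. Of 7 tapetum markers 3 were listed, all lower (loci taken as RTS, OsC6 and RAFTIN1), and their summed level was 12343 to 16470 FPKM in wild type and 1074 to 1402 FPKM in nup1. Other loci taken as tapetal genes were higher in nup1, among them loci of the pollen wall and cell death lists counted above, so the 3 markers do not stand for the tapetum as a whole. Of 3 loci of the small subunit of Rubisco, a marker of green tissue, 2 were listed, both lower, with sums of 123 to 216 FPKM and 48.4 to 78.0 FPKM. The other listed locus of the photosynthesis list, LOC_Os03g39610, was higher, at 106 ± 39.1 FPKM in wild type and 249 ± 31.8 FPKM in nup1 (SD, n = 3). Of 4 markers of germ cells in meiosis, 4 of maturing pollen and 1 of the carpel, none is in the stage 10 table, so their levels are not known here. The part of these cell types in the lower levels of the 121 loci was not tested.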

How the data were processed

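The 6 stage 10 libraries of anther poly(A) RNA were used. Per the series text, HISAT2 mapped the paired reads (MSU rice genome, release 7), and Cufflinks gave levels and differential expression (false discovery rate under 0.01, fold over 2); for neither tool is a version stated there. The authors deposited FPKM values for each library of the loci they called, in 1 table per stage. Fragment numbers per library are unknown, so no counting interval is given.

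From the stage 10 table, log2(FPKM + 1) was fitted with limma 3.58.1 (R 4.3.3, mean-variance trend, Benjamini-Hochberg adjustment) over loci averaging at least 1 FPKM; the fit was tested on simulated data. Because the table holds only called loci, the fit does not test those calls independently. The loci named are the 10 most negative differences (wild-type mean of 10 FPKM or more) and the 10 highest wild-type means. Also named are 3 on either side of the cutoff, neighbouring members, and the 3 widest in each genotype. Others are named where a pattern is described. The loci and the gene lists were chosen with earlier results of these data known. Of 121 and 3453 identifiers, 0 matched the reference table, so no sequence is shown.

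Alternatives were other pseudocounts, cutoffs, scalings and filters, a replicate block, and each library left out in turn.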

Additional observations from a re-analysis of the deposited data

How the results depend on the processing

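The number of loci that meet the rule depends on the pseudocount and the cutoff. It was 224 with a pseudocount of 0.1 FPKM and 50 with 5 FPKM, and 260 at a cutoff of -1.5 and 28 at -3, in place of 121. The median difference of the 121 was -3.0 and -1.92 with those pseudocounts, and 1372 listed loci passed the limma threshold with 5 FPKM, in place of 2449. Loci with another of the 121 beside them numbered 0 within 2 locus steps and 6 within 10, in place of 2. With each library left out in turn, 95 to 145 loci met the rule and the median difference ran from -2.64 to -2.24. Of the 121, 119 to 120 passed the threshold, and 1674 to 2587 listed loci passed. All 121 stayed separate between genotypes, which was fixed in advance, since leaving out a library cannot make separate groups overlap. Median centring gave 169 loci and quantile normalization 148. With a replicate block 121 of the 121 and 2499 listed loci passed. The labels do not say whether replicate numbers pair the samples. Deviations of libraries with one number correlated at 0.0382, 0.251 and 0.177, and those of libraries with different numbers at -0.273 to 0.206. Wild-type replicates 2 and 3 correlated best with the nup1 library of their own number, and wild-type replicate 1 with nup1 replicate 3 (0.206). These values do not settle whether the samples are paired. Of 27 named loci none changed sign under any alternative. Their selection at, under or just above a difference of -2 largely fixed this in advance. LOC_Os04g39340 missed the limma threshold under 4 alternatives and LOC_Os11g35310 under 3. The cause was not tested. Without fragment numbers, precision at low FPKM cannot be given.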

Other observations

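In the authors' deposited table, 1511 loci are listed as lower at stage 10, and 5 of these had a higher mean FPKM in nup1. LOC_Os03g14120 had 14.6, 13.7 and 15.9 FPKM in wild type and 24.1, 30.6 and 30.0 FPKM in nup1. LOC_Os03g30260 had 1.36, 1.36 and 1.60 FPKM against 3.06, 4.74 and 3.71 FPKM. LOC_Os05g08854 had 3.0, 3.59 and 3.10 FPKM against 5.0, 3.55 and 5.42 FPKM. LOC_Os10g05730 had 26.7, 19.1 and 30.3 FPKM against 29.2, 23.8 and 23.1 FPKM, means that barely differ, and LOC_Os04g57310 had 0.427, 0.826 and 1.66 FPKM against 0.568, 1.9 and 1.54 FPKM.

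All 5 lie within 1 locus step of a locus with a difference of -2 or less, as do 42 of the 1511 loci listed lower (2.78%). For 4 of them that neighbour is among the 121 loci, namely LOC_Os03g14130, LOC_Os03g30250, LOC_Os05g08850 and LOC_Os10g05720. The pattern was noticed after the values were seen, and its cause was not tested. Another 2 loci are listed as higher with a lower mean FPKM in nup1, LOC_Os08g34910 (0.698 against 0.486 FPKM) and LOC_Os10g38060 (20.8 against 19.3 FPKM). Neither has a locus with a difference of -2 or less within 5 steps. For loci listed as higher, the matching check is for a strongly higher neighbour, and such neighbours were not counted. LOC_Os10g38050, which adjoins LOC_Os10g38060, had a difference of 5.54.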
